A study of Mus musculus with 6 samples.

Results

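The Ly49 receptors, encoded by the Klra genes, were followed in lung RNA of RAG1-/- mice and RAG1-/- Sgo1-/+ mice. The 9 members were taken by symbol from the count table (Klra1, Klra2, Klra3, Klra4, Klra7, Klra8, Klra9, Klra10 and Klra17), and all 9 are among its 25860 genes. Of these, 7 had at least 10 reads over the 6 libraries and were compared, while Klra10 and Klra17 had fewer. Normal-looking lung came from 12-month-old mice with no experimental treatment, 3 RAG1-/- (replicates 1, 2 and 3) and 3 RAG1-/- Sgo1-/+ (replicates 4, 5 and 6), with 1 library per mouse. Every mouse lacked both copies of Rag1, the recombinase gene needed for T and B cells, and the second group also lacked 1 copy of Sgo1 (Shugoshin-1), a guardian of chromosome cohesion whose loss gives chromosome instability. The mutations are germline, the mice were bred on C57BL/6, and both sexes were used. The comparison asks what chromosome instability adds in a lung that has to rely on innate immunity.

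Ly49 receptors are lectin-like proteins that sit in pairs on natural killer (NK) cells and read MHC class I on neighbouring cells. Inhibitory members hold the NK cell back through a short motif built around a tyrosine in the cytoplasmic tail, the ITIM, which recruits the phosphatase SHP-1 (Ptpn6). Activating members lack that motif and signal through the adaptor DAP12 (Tyrobp). Each NK cell switches on its own subset of the genes, so that the receptors vary from cell to cell. Klra1 (Ly49A), Klra3 (Ly49C), Klra7 (Ly49G2) and Klra9 (Ly49I) are inhibitory, Klra10 (Ly49J) is of the inhibitory type, and Klra4 (Ly49D) and Klra8 (Ly49H) are activating. Klra17 (Ly49Q) is known from plasmacytoid dendritic and myeloid cells, and Klra2 (Ly49B) from myeloid cells.

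The difference between the inhibitory and the activating members can be read at the start of their coding sequence, which encodes the cytoplasmic tail. The first 36 coding bases of the GENCODE M21 transcripts (GRCm38, chromosome 6, minus strand) are printed 5′ to 3′, with capitals for bases that differ from Klra3.
Klra3: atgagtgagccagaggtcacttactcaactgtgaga
Klra9: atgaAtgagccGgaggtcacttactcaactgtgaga
Klra10: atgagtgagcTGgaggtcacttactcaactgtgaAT
Klra7: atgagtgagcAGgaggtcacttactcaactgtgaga
Klra1: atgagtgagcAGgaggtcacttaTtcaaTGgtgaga
Klra17: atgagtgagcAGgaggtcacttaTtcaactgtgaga
Klra2: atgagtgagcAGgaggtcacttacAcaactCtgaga
Klra4: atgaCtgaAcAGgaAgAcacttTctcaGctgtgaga
Klra8: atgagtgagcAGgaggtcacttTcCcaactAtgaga
Counted from 1 at the first base of the start codon, positions 22 to 24 read tac or tat in 7 members and ttc in 2, Klra4 and Klra8, which carry A23T relative to Klra3. These 2 are the members classed as activating.

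How alike the members are bears on how far reads can be told apart, since the treatment of reads that fit several genes is not given in the sources used here. Across the 36 pairs of members, coding identity ran from 71.0% to 96.9% with a median of 78.5%. Klra3, Klra9 and Klra10 were the closest, at 96.9% for Klra9 with Klra10, 96.3% for Klra3 with Klra10 and 95.9% for Klra3 with Klra9. Klra8 followed at 91.9% with Klra9 and 90.5% with Klra3, although it is activating and they are inhibitory. Klra2 stood farthest from the rest, between 71.0% and 74.6%. The read length was 150 bases, and 0 pairs of members shared an identical coding stretch of that length. The first 165 coding bases of Klra8 do occur in the pseudogene Klra14-ps.

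**Figure D1:**
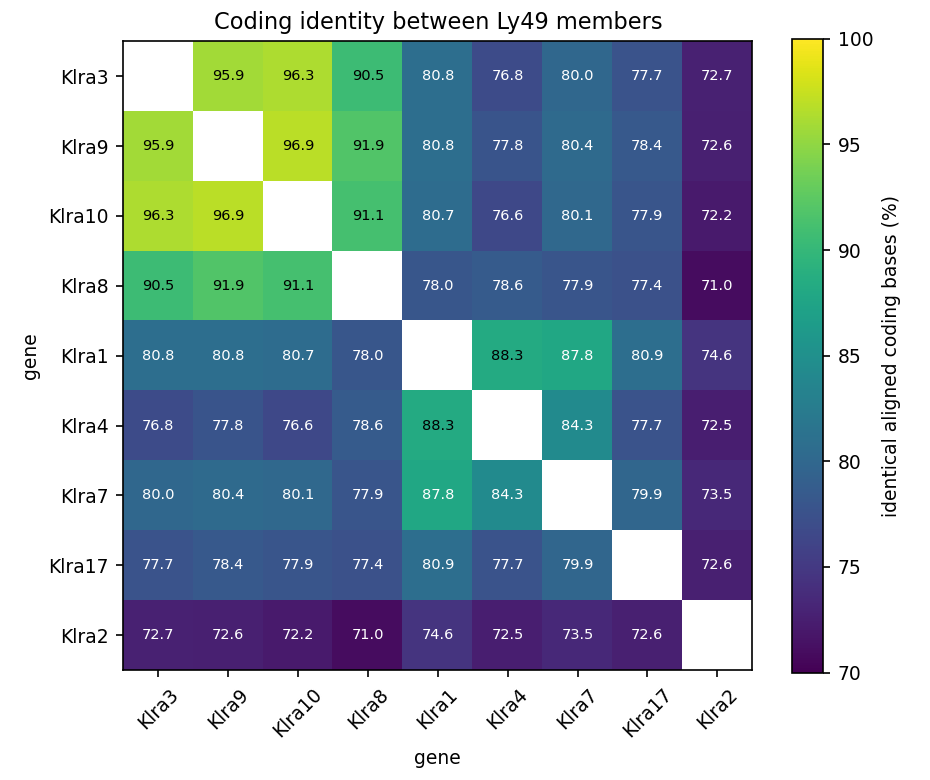
Identity of the aligned coding bases, in percent, for each pair of the 9 Ly49 members (genes on both axes, colour and number give the identity). Klra3, Klra9 and Klra10 form a block of 95.9% to 96.9%, with Klra8 next to it, and Klra2 is at most 74.6% identical to any other member.

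A read with a few mismatches is harder to place. Of the 150-base windows in each coding sequence, 47.9% in Klra10, 44.0% in Klra9, 38.5% in Klra3 and 23.2% in Klra8 lay within 3 bases of another member, against 7.19% in Klra1, 7.15% in Klra4 and 0% in Klra2, Klra7 and Klra17. The values of Klra3, Klra8, Klra9 and Klra10 are therefore uncertain among themselves. Coding positions 619 to 738 are shown as the stretch of 120 bases where Klra3, Klra9 and Klra10 differ least, and positions 162 to 281 as the stretch where Klra3 and Klra9 differ most, with capitals as before. The first stretch spans exons 6 and 7 of the Klra3, Klra9 and Klra8 transcripts and exons 5 and 6 of Klra10, and the second spans exons 3 and 4, or 2 and 3 in Klra10.
Klra3, 619 to 738: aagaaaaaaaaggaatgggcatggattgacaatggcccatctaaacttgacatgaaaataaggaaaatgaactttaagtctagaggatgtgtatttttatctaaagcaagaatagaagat
Klra9, 619 to 738: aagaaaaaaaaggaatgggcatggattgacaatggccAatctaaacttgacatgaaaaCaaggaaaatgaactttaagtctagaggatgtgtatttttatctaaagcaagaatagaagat
Klra10, 619 to 738: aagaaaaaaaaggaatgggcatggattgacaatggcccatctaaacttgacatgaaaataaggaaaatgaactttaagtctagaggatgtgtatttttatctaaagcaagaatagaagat
Klra8, 619 to 738: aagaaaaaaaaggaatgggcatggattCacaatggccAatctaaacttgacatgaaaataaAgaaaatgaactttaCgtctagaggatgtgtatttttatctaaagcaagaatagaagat
Klra3, 162 to 281: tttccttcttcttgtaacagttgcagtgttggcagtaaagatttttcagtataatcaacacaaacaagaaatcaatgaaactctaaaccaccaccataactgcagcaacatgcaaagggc
Klra9, 162 to 281: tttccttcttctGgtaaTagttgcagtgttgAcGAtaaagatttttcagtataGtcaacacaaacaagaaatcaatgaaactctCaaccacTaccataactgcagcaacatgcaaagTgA
Klra10, 162 to 281: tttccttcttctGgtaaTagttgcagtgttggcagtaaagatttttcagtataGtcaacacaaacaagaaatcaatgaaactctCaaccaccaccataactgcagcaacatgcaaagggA
Klra8, 162 to 281: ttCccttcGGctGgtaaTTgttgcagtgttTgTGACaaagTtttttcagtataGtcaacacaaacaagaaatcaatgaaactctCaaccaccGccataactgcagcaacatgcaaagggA
In the first stretch Klra9 differs from Klra3 at 2 positions, Klra10 at 0 and Klra8 at 4, and in the second at 10, 5 and 16. The counts themselves were not copies of each other, as 0 pairs of members carried the same reads in every library.

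Library totals on genes ran from 3205822 to 9366774 reads. All levels are given as CPM, the count scaled to the library's total, on which scale the detection limit of 3 reads lies at 0.320 to 0.936. Lung markers were abundant, with Sftpc, the surfactant protein C gene, at 39834 to 190990 reads. Sgo1 had 6, 2 and 4 reads in RAG1-/- lungs and 6, 0 and 2 in RAG1-/- Sgo1-/+ lungs, too few to check the genotype, and Rag1 had between 8 and 24. The library of RAG1-/- replicate 1 differed in sex, with 7717 reads of Xist against 4 to 8 in the others. Sex was therefore uneven between the groups, and its part in values that rest on replicate 1 was not tested. Where replicates 2 and 6 are left out, replicate 1 is 1 of the 2 RAG1-/- libraries that remain. A pair of libraries held lymphocyte transcripts that go against a RAG1-/- label. The library labelled RAG1-/- replicate 2 had 1853 reads of Igkc (immunoglobulin light chain), against 8 in replicate 1 and 0 in the other 4, and 34 reads of Cd8a (a T cell coreceptor), which had 12 in RAG1-/- Sgo1-/+ replicate 6 and was without reads in the remaining 4. Values without both are given below for the tested members and for their sums and ratios.

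Summed over the 9 members, Ly49 reads numbered 256, 79 and 165 in RAG1-/- lungs and 68, 112 and 34 in RAG1-/- Sgo1-/+ lungs. Scaled to depth these are 27.3, 16.0 and 25.0 CPM against 13.7, 20.7 and 10.6 CPM, or 22.8 ± 6.0 and 15.0 ± 5.19 CPM (mean ± SD, n = 3). The mean was 1.51-fold lower in RAG1-/- Sgo1-/+ lungs (log2 ratio -0.60), but the groups overlapped, because RAG1-/- Sgo1-/+ replicate 5 lay above the library labelled RAG1-/- replicate 2. Within each group the lowest sum was in the library with Cd8a reads, whose part in the result was not tested. The log2 ratio was -0.60 without both of these libraries and ran from -0.90 to -0.40 when single libraries were left out. In whole lung, fewer cells that carry a receptor and less RNA per cell cannot be told apart.

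**Figure D2:**
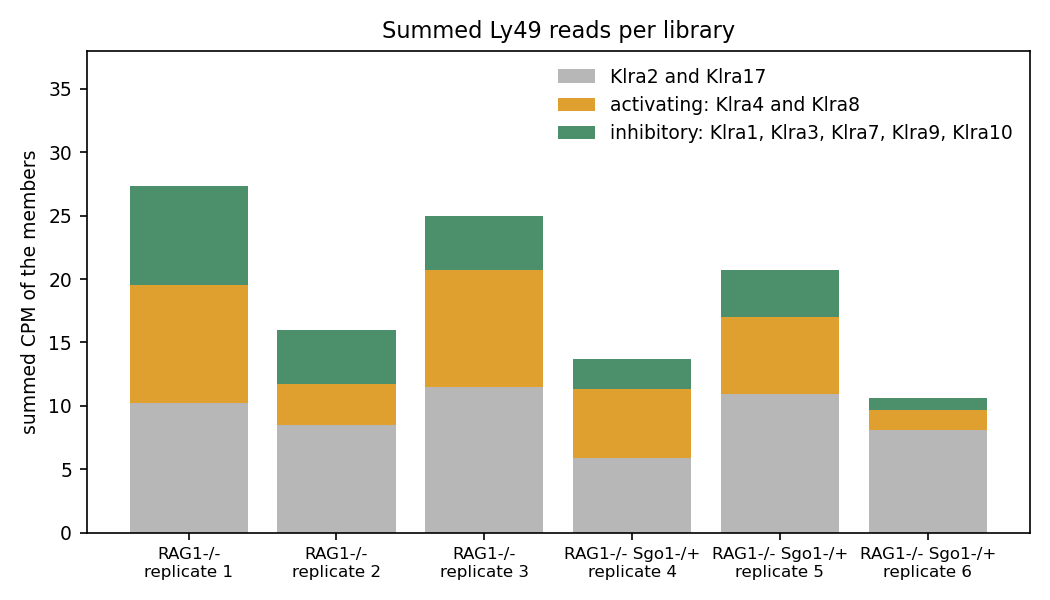
Summed CPM of the 9 Ly49 members in each of the 6 libraries, stacked by class (grey Klra2 and Klra17, orange activating, green inhibitory). Totals run from 16.0 to 27.3 in RAG1-/- and from 10.6 to 20.7 in RAG1-/- Sgo1-/+. The green part is smaller in every RAG1-/- Sgo1-/+ library than in every RAG1-/- library. It includes Klra3 and Klra9, which the study named for their difference in these same libraries.

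Most of this sum was Klra2 and Klra8. Klra2 made up 45.3% ± 8.25 of the family's reads in RAG1-/- lungs and 56.7% ± 17.6 in RAG1-/- Sgo1-/+, and Klra8 25.1% ± 8.69 and 17.1% ± 4.71 (mean ± SD, n = 3). Per kilobase of the longest annotated transcript, the level in RAG1-/- lung was 5.56 ± 0.838 CPM for Klra2 and 5.12 ± 2.65 for Klra8, which did not differ beyond their spread. Klra3 (1.68 ± 0.378), Klra9 (1.37 ± 0.650), Klra4 (0.981 ± 0.292) and Klra7 (0.980 ± 0.857) followed in overlapping ranges of CPM per kilobase. Klra1 (0.213 ± 0.370), Klra10 (0.173 ± 0.300) and Klra17 (0.0598 ± 0.104) were close to the limit of detection. In RAG1-/- Sgo1-/+ the level per kilobase was 4.54 ± 1.31 CPM for Klra2, 2.30 ± 1.28 for Klra8 and 1.34 ± 1.02 for Klra4, above Klra7 (0.674 ± 0.366), Klra3 (0.585 ± 0.0753), Klra10 (0.314 ± 0.272), Klra9 (0.298 ± 0.290), Klra1 (0.148 ± 0.256) and Klra17 (0.104 ± 0.180). Klra4 thus stood below Klra3 and Klra9 in RAG1-/- and above them in RAG1-/- Sgo1-/+, where its spread reaches over its neighbours.

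The 7 members with enough reads were then compared between the groups with the quasi-likelihood test of edgeR, fitted over 17231 genes. With Benjamini–Hochberg adjustment, 0 members passed an adjusted P of 0.05 and a 2-fold change, as did 0 of all genes (0%). At an unadjusted P under 0.05, 2 members passed, Klra3 and Klra9, both lower in RAG1-/- Sgo1-/+, where 2.52% of all tested genes were lower at this level, and 0 members were higher (3.15% of all genes; 5.66% in either direction). Both genes are named by the study for their difference in these same libraries, so they are no independent evidence of a direction. The study also reported lower expression of both by quantitative RT-PCR in lungs of Sgo1-/+ mice with intact Rag1. Those mice are not part of the data used here. DESeq2 found 0 members at an unadjusted P under 0.05 and edgeR's exact test 3. The log2 fold change was below 0 for 6 of the 7 members (45.1% of all genes), and the 3 members Klra3, Klra8 and Klra9 were at least 2-fold lower (3.08% of all genes). The median over the 7 members was -0.52, beside 0.034 over all tested genes.

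**Figure D3:**
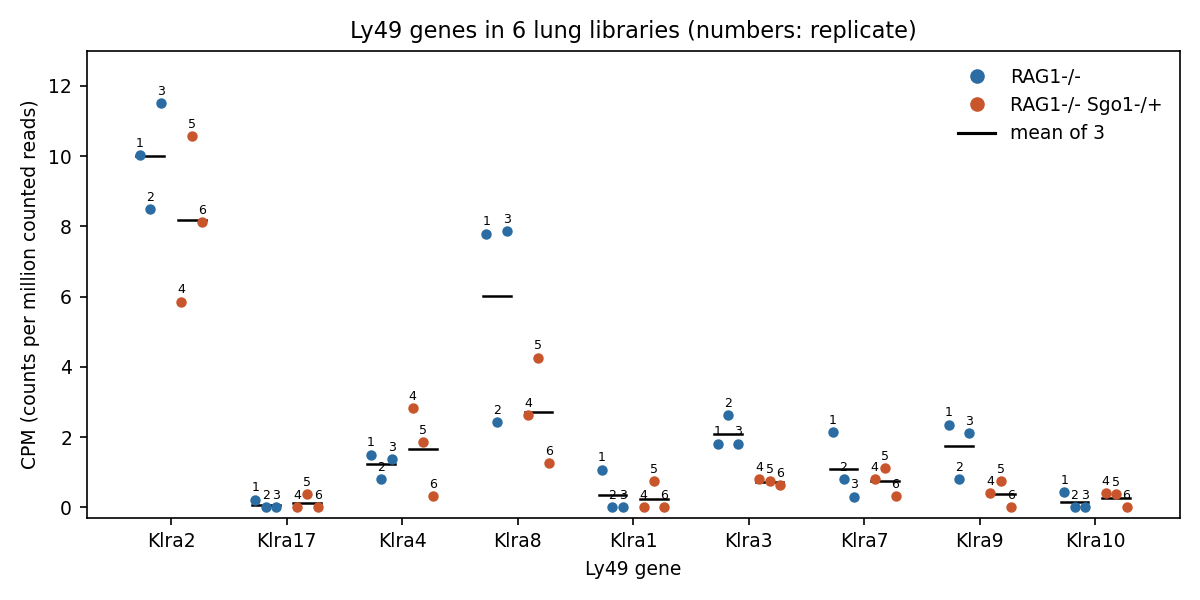
CPM of each of the 9 Ly49 genes in the 6 libraries (points, with replicate numbers; blue RAG1-/-, orange RAG1-/- Sgo1-/+; black lines, mean of 3). Klra3 and Klra9 are the members whose colours separate, although in Klra9 replicate 2 (0.808 CPM) and replicate 5 (0.741 CPM) almost meet.

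Among the inhibitory receptors, Klra3, which in C57BL/6 mice recognises the class I molecule H2-K1, had 17, 13 and 12 reads in RAG1-/- lungs and 4, 4 and 2 in RAG1-/- Sgo1-/+ lungs. Every RAG1-/- Sgo1-/+ library, at 0.624 to 0.808 CPM, lay under every RAG1-/- library, at 1.81 to 2.63 CPM. Groups that do not overlap in this direction were found for 2 of the 7 members tested and for 5.54% of all genes, and in the other direction for 0 members and 6.24% of all genes. The log2 fold change came to -1.47 (SE 0.62, unadjusted P = 0.0400, adjusted P = 0.832). An exact permutation of CPM gave P = 0.1 for Klra3 and for Klra9, the smallest value that 3 against 3 mice allow. Leaving out any single library kept it between -1.56 and -1.29, with an unadjusted P from 0.0641 to 0.103, and it was -1.21 (unadjusted P = 0.140) without replicates 2 and 6. Its share of the family's reads was 10.1% ± 5.49 for RAG1-/- mice against 5.11% ± 1.33 (mean ± SD, n = 3 each), again without overlap, and 6.96% and 4.73% without replicates 2 and 6.

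Klra9, which also binds H2-K1, had 22, 4 and 14 reads in RAG1-/- lungs and 2, 4 and 0 in RAG1-/- Sgo1-/+ lungs. These are 2.35, 0.808 and 2.12 CPM against 0.404, 0.741 and 0 CPM, so that the groups did not overlap but the same 4 reads stand behind their nearest libraries, replicates 2 and 5. For Klra9 the log2 fold change came to -2.03 (SE 0.88, unadjusted P = 0.0442, adjusted P = 0.832). It was -1.92 without replicates 2 and 6 (unadjusted P = 0.0355). It was -2.34 (unadjusted P = 0.0262) without replicate 2 and -2.82 (unadjusted P = 0.0359) without replicate 5. The unadjusted P was 0.126 without replicate 1, 0.107 without replicate 3, 0.0928 without replicate 4 and 0.0836 without replicate 6, with log2 fold changes of -1.76, -1.90, -2.00 and -1.61.

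Klra7, a receptor for other class I molecules, showed no such separation. Its reads were 20, 4 and 2 in RAG1-/- lungs and 4, 6 and 1 in RAG1-/- Sgo1-/+ lungs, with 1 high library, RAG1-/- replicate 1. The log2 fold change came to -0.52 (SE 0.89, adjusted P = 0.945) and 0.52, in the other direction, without that library. Without replicates 2 and 6 it was -0.40. Klra1 was seen in 2 libraries only, with 10 reads in RAG1-/- replicate 1 and 4 in RAG1-/- Sgo1-/+ replicate 5. Its log2 fold change of -0.52 (SE 1.58, adjusted P = 0.974) therefore rests on 1 mouse per group, and it was -4.33 without replicate 5, 0.050 without replicate 4 and -0.58 without replicates 2 and 6. Klra10 had 4 reads in replicate 1 and 2 in each of replicates 4 and 5. Its reads pooled by group give a ratio of RAG1-/- Sgo1-/+ over RAG1-/- of 1.54, with an exact 95% interval from counting alone of 0.288 to 8.29. If both mates of a pair were counted, that interval is too narrow.

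Added together, the 5 inhibitory genes of NK cells (Klra1, Klra3, Klra7, Klra9 and Klra10) had 73, 21 and 28 reads in RAG1-/- lungs and 12, 20 and 3 in RAG1-/- Sgo1-/+ lungs. The sums were 7.79, 4.24 and 4.24 CPM against 2.42, 3.70 and 0.936 CPM, so that the groups were apart, at a ratio of means of 2.30. Without replicates 2 and 6 the means were 6.02 and 3.06 CPM, a ratio of 1.96, with the 2 remaining libraries per group apart. Groups of 2 libraries are often apart whatever their label, and the share of all genes apart in these libraries was not computed. The sum includes Klra3 and Klra9, which the study named for their difference in these same libraries. Klra1, Klra7 and Klra10 each overlapped between the groups, so the separation does not describe the class as a whole. Since the genes were put together with their values known, the sum was not tested.

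The activating members pointed in different directions. Klra8, the receptor that gives C57BL/6 mice resistance to mouse cytomegalovirus, had 73, 12 and 52 reads in RAG1-/- lungs and 13, 23 and 4 in RAG1-/- Sgo1-/+ lungs, or 7.79, 2.42 and 7.87 CPM against 2.63, 4.26 and 1.25 CPM. RAG1-/- replicates 1 and 3 were high, and the library labelled RAG1-/- replicate 2 lay among the RAG1-/- Sgo1-/+ libraries. The log2 fold change came to -1.12 (SE 0.54, unadjusted P = 0.0660, adjusted P = 0.832; P = 0.3 by exact permutation). It was -1.47 (unadjusted P = 0.0126) without replicate 2, -1.60 (unadjusted P = 0.0365) without replicate 5, and -1.17 (unadjusted P = 0.0216) without replicates 2 and 6. It was -0.89 (unadjusted P = 0.187) without replicate 1, -0.90 (unadjusted P = 0.189) without replicate 3, -1.06 (unadjusted P = 0.135) without replicate 4 and -0.83 (unadjusted P = 0.162) without replicate 6.

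Klra4, the other activating receptor, had 14, 4 and 9 reads in RAG1-/- lungs and 14, 10 and 1 in RAG1-/- Sgo1-/+ lungs. Scaled to depth, replicates 4 (2.83 CPM) and 5 (1.85 CPM) were the highest of the 6 libraries and replicate 6 (0.312 CPM) the lowest. The log2 fold change came to 0.47 (SE 0.73, adjusted P = 0.937; P = 0.7 by exact permutation), -0.091 without replicate 4 and 0.70 without replicates 2 and 6. Klra4 was the only 1 of the 7 tested members above 0. Together Klra4 and Klra8 were at 7.25 ± 3.48 CPM in RAG1-/- and 4.38 ± 2.46 CPM in RAG1-/- Sgo1-/+, with overlap. Without replicates 2 and 6 they were at 9.26 and 5.78 CPM, with the 2 libraries left per group apart, as groups of 2 often are. They took 55.4% ± 12.7 and 64.7% ± 3.96 of the reads on the 7 genes of NK cells (mean ± SD, n = 3), and these shares overlapped too, also without replicates 2 and 6 (61.5% and 65.7%).

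**Figure D4:**
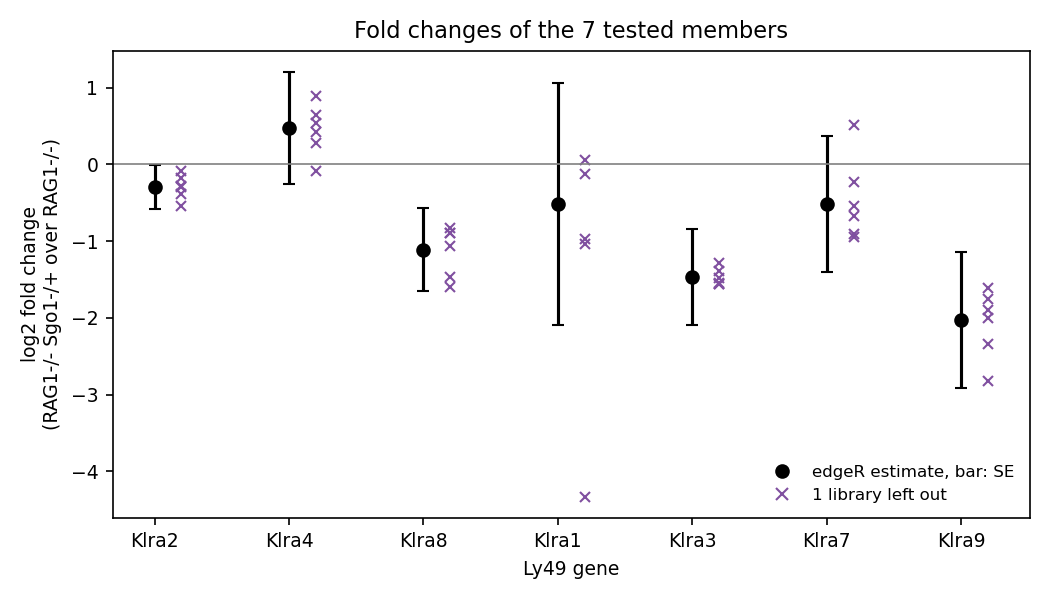
Log2 fold change of RAG1-/- Sgo1-/+ over RAG1-/- for the 7 tested members (black points, edgeR estimate with SE; purple crosses, the estimate with 1 library left out). Klra2, Klra3, Klra8 and Klra9 stay below 0 in every case, while Klra1, Klra4 and Klra7 cross 0.

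Of the members known from myeloid and dendritic cells, only Klra2 had enough reads to be compared. Klra2 had 94, 42 and 76 reads in RAG1-/- lungs and 29, 57 and 26 in RAG1-/- Sgo1-/+ lungs, or 10.04, 8.49 and 11.5 CPM against 5.86, 10.6 and 8.11 CPM. The groups overlapped, and the lowest library was replicate 4, not replicate 6. Klra2 was at a log2 fold change of -0.29 (SE 0.29, adjusted P = 0.888; P = 0.4 by exact permutation), with -0.54 and -0.091 as the extremes when single libraries were left out, and -0.38 without replicates 2 and 6. Klra17 had 2 reads in RAG1-/- replicate 1 and 2 in RAG1-/- Sgo1-/+ replicate 5, which is under 3 reads in each group, so that no fold is given. Siglech, a marker of plasmacytoid dendritic cells, had 12, 8 and 15 reads against 4, 7 and 2 (-0.86 ± 0.65 as log2 fold change and SE, adjusted P = 0.861). Of the 10 markers of these cells 0 passed at an unadjusted P under 0.05. Their summed level was 282 to 319 CPM in RAG1-/- and 262 to 299 CPM in RAG1-/- Sgo1-/+. Tcf4 was the largest part of it, at 172 to 207 CPM in RAG1-/- and 144 to 169 CPM in RAG1-/- Sgo1-/+. The 9 myeloid markers summed to 7823 to 10351 and 7516 to 10155 CPM. Nearly all of this was Lyz2 (7541 to 10034 and 7233 to 9854 CPM), so the sum says little about the others. The list's median log2 fold change was 0.34, with 2 of the 9 below 0. Of the 9, 1 was higher at an unadjusted P under 0.05 (3.15% of all genes), Cd68 (1.497 ± 0.59 as log2 fold change and SE, adjusted P = 0.832). It was at 63.0 CPM in replicate 6 and at 6.06 to 16.2 CPM elsewhere.

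Lymphocyte lists followed the libraries that stand apart. Of 11 T cell markers 0 passed at an unadjusted P under 0.05, with Cd3e at 2, 12 and 0 reads against 0, 9 and 11, and their sum was highest in replicates 2 (56.8 CPM) and 6 (45.2 CPM). Of 8 B cell markers 4 were lower (2.52% of all genes), with nearly all of their reads in replicate 2. There the sum of the list was 664.5 CPM against 12.5 to 23.1 CPM elsewhere, and Cd79a had 69 reads against 0 to 2 in the others. The 4 markers of group 2 innate lymphoid cells, other innate cells that RAG1-/- mice keep, gave 0 below that P. Of 8 lung markers 1 was higher (3.15% of all genes), Foxj1 of ciliated cells.

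The table holds 4 further Ly49 loci. Klra13-ps, a transcribed pseudogene between Klra10 and Klra3 on the chromosome, had 44, 14 and 21 reads in RAG1-/- lungs and 13, 20 and 8 in RAG1-/- Sgo1-/+ lungs. Its log2 fold change came to -0.28 (SE 0.42, adjusted P = 0.935). Klra14-ps, which lies next to Klra8 and Klra9 and shares the start of Klra8, had 7, 0 and 4 reads against 9, 11 and 0. Its log2 fold change of 1.44 (SE 1.12, adjusted P = 0.869) pointed the other way from that of Klra8. Klra5 had 2 reads in each of replicates 3 and 5, and Klra6 had 0 reads in all 6 libraries, which allows up to 0.320 to 0.936 CPM. With all 13 loci, the summed level was 26.9 ± 7.24 CPM in RAG1-/- and 19.4 ± 6.96 CPM in RAG1-/- Sgo1-/+.

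Other receptors of the NK gene complex were set beside the family. Of 18 genes on this list, 13 were tested, and 1 was lower at an unadjusted P under 0.05 (2.52% of all genes), Clec2d, the ligand of an inhibitory NK receptor, with 3096, 1558 and 2456 reads in RAG1-/- lungs and 1247, 1664 and 638 in RAG1-/- Sgo1-/+ lungs (-0.42 ± 0.17 as log2 fold change and SE, adjusted P = 0.832). Klrd1 (CD94) had 80, 59 and 73 reads against 30, 46 and 26 (-0.47 ± 0.27 as log2 fold change and SE, adjusted P = 0.834). Clec2d and Klrd1 were the 2 genes of the 13 without overlap between groups, where 5.54% of all genes were apart in this direction. Klrb1c (NK1.1), which marks NK cells in C57BL/6 mice, had 59, 10 and 56 reads against 18, 19 and 6, the same order of high and low libraries as Klra8 in RAG1-/-. Between the groups it was at -0.88 on the log2 scale (SE 0.52, adjusted P = 0.840). Klrg1, a receptor of mature NK cells, was at -1.63 (SE 0.86, adjusted P = 0.832) with 33 of its reads in replicate 1. Klrb1b, an inhibitory receptor of another family, was at 0.92 (SE 0.42, adjusted P = 0.832), with 156 reads in replicate 5. The list's median was -0.42, and 9 of the 13 genes were below 0 (45.1% of all genes).

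NK cell markers were set beside the receptors that these cells carry. All 16 were tested, 1 was lower at an unadjusted P under 0.05 (2.52% of all genes) and 0 were higher (3.15%). This was Gzma (granzyme A, a cytotoxic protease), with 248, 38 and 122 reads in RAG1-/- lungs and 46, 38 and 14 in RAG1-/- Sgo1-/+ lungs (-1.34 ± 0.43 as log2 fold change and SE, adjusted P = 0.832). Ncr1 (NKp46), a defining marker, had 54, 8 and 29 reads against 12, 26 and 0 (-0.64 ± 0.79 as log2 fold change and SE, adjusted P = 0.908). Eomes, a transcription factor of NK cells, had 30, 8 and 10 against 4, 8 and 2 (-1.08 ± 0.64 as log2 fold change and SE, adjusted P = 0.840). Its groups were apart in CPM, but replicates 3 (1.51 CPM) and 5 (1.48 CPM) almost meet. S1pr5, which guides NK cells out of tissue, was at -1.06 (SE 0.64, adjusted P = 0.840), Gzmb at -0.95 (SE 0.60, adjusted P = 0.848) and Prf1 (perforin) at 0.084 (SE 0.92, adjusted P = 0.993). Others went the other way, with Itga2 at 0.94 (SE 0.94, adjusted P = 0.890) and Xcl1 at 0.49 (SE 1.43, adjusted P = 0.972). Il2rb was at 0.45 (SE 0.39, adjusted P = 0.874) and Cd160 at 0.38 (SE 0.77, adjusted P = 0.955). Eomes was the 1 marker of the 16 whose groups were apart (5.54% of all genes in this direction). The median was -0.34 and 9 of 16 were below 0 (45.1% of all genes). The summed level of the markers was 83.6, 35.2 and 58.4 CPM in RAG1-/- lungs and 44.0, 55.9 and 28.7 CPM in RAG1-/- Sgo1-/+. Gzma, the largest part of it in RAG1-/- lungs, was at 26.5, 7.68 and 18.5 CPM against 9.29, 7.04 and 4.37 CPM. Ccl5, another large part, was at 13.5, 6.26 and 6.36 CPM against 4.85, 13.3 and 9.36 CPM. In each group the lowest marker sum was in the same library as the lowest Ly49 sum.

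Set against these markers, Ly49 genes of NK cells (all members but Klra2 and Klra17) had 20.4, 21.3 and 23.1 reads per 100 marker reads in RAG1-/-. In RAG1-/- Sgo1-/+ the ratio was 17.9, 17.5 and 8.70, under every RAG1-/- library. The lowest value rests on 8 Ly49 reads in replicate 6. Without replicates 2 and 6 the means were 21.7 and 17.7 per 100 marker reads. The 2 libraries left per group were apart, which groups of 2 often are whatever their label. For Klra8 alone per 100 reads of Klrb1c the values were 124, 120 and 92.9 against 72.2, 121 and 66.7, with overlap, and the means without replicates 2 and 6 were 108 and 96.6. The Ly49 genes of NK cells include Klra3 and Klra9, named by the study for their difference in these same libraries. The separation of their ratio to the markers is therefore no independent evidence. These ratios were chosen after the values were seen and were not tested.

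**Figure D5:**
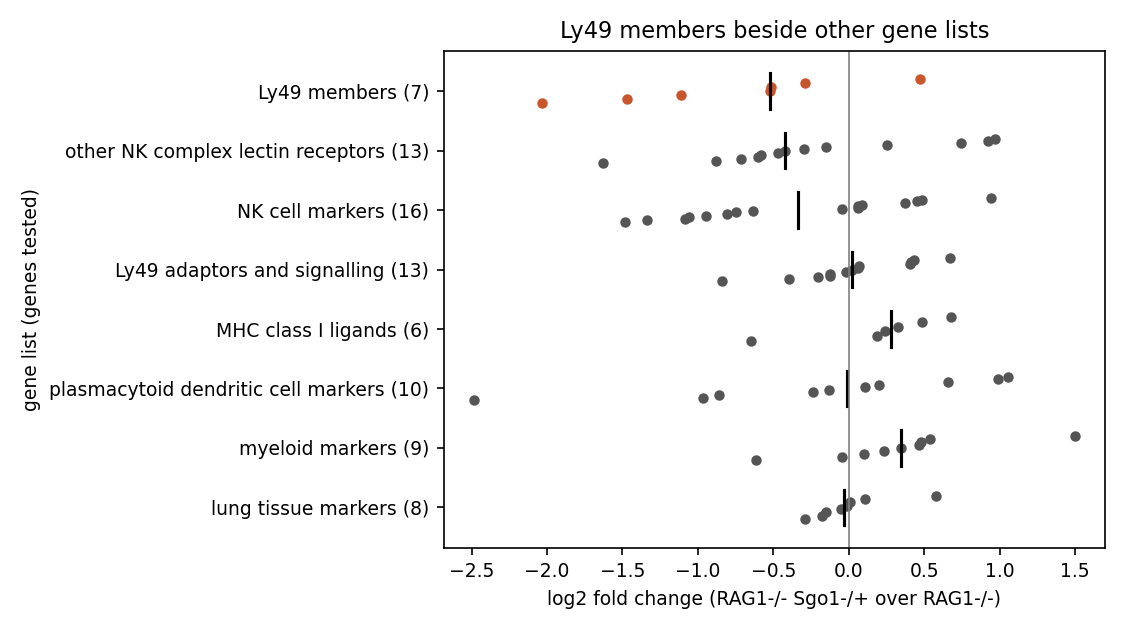
Log2 fold changes of RAG1-/- Sgo1-/+ over RAG1-/- (each point a tested gene, black bars the median of the list, number of genes in brackets) for the Ly49 members and 7 other lists. The median is -0.52 for the members, -0.42 for the other lectin receptors and -0.34 for the NK cell markers, and between -0.032 and 0.34 for the 5 lists below them. The T cell (median -0.18), B cell (-5.93) and group 2 innate lymphoid (0.11) lists are not drawn.

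Ligands and signalling partners of the family were compared in the same way. H2-K1, the ligand of Klra3 and Klra9, had 2377, 1092 and 1510 reads in RAG1-/- lungs and 114, 2107 and 101 in RAG1-/- Sgo1-/+ lungs. Replicates 4 (23.03 CPM) and 6 (31.5 CPM) lay far under RAG1-/- (220.6 to 253.8 CPM), while replicate 5 (390.3 CPM) was the highest of all. Over the group the log2 fold change came to -0.65 (SE 0.81, adjusted P = 0.911), and without replicate 5 it was -3.11 (adjusted P = 0.00226). That fit drops the very library that went against a decrease, and H2-K1 was called in no other setting. Class I genes are near copies of each other, so these counts are uncertain. H2-D1 had 10341, 5025 and 6993 reads against 5399, 8025 and 6019 (0.49 ± 0.18 as log2 fold change and SE, adjusted P = 0.832), H2-Q6 was at 0.68 (SE 0.27, adjusted P = 0.832) and B2m, the light chain of class I, at 0.32 (SE 0.17, adjusted P = 0.832). Of the 6 ligand genes tested 2, H2-D1 and H2-Q6, were higher at an unadjusted P under 0.05 (3.15% of all genes), with a list median of 0.28.

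Of 13 adaptor and signalling genes tested, 0 passed at an unadjusted P under 0.05 in edgeR, and the median was 0.020. Tyrobp, the adaptor of Klra4 and Klra8, which myeloid cells also express, had 322, 96 and 178 reads against 113, 129 and 205 (0.41 ± 0.37 as log2 fold change and SE, adjusted P = 0.876). Hcst (DAP10), a second adaptor, had 16, 7 and 10 reads against 2, 2 and 10 (-0.39 ± 0.85 as log2 fold change and SE, adjusted P = 0.959). Ptpn6, the phosphatase of the inhibitory members, was at -0.20 (SE 0.24, adjusted P = 0.905). The kinases Syk and Lck were at 0.67 (SE 0.35, adjusted P = 0.832) and -0.84 (SE 0.57, adjusted P = 0.855).

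Finally, the genes whose profile was nearest to the summed members were sought among 14637 genes with at least 60 reads, by the root mean square difference of centred log2 CPM over the 6 libraries. The 5 nearest were 2 loci without a matched symbol, and Nsmce2 at 0.140, Setmar at 0.154 and Pcdhb3 at 0.157 on the log2 scale, where the median gene was at 0.53. From the lists of NK cell markers and lectin receptors, Clec2d, a ligand of an NK receptor, ranked 40. Eomes ranked 153, Nkg7 1450 and Klrb1c 2029, whereas Ncr1 (14173), Cd69 (14347) and Prf1 (14471) were far down the order. Klra2, known from myeloid cells, made up 45.4% of the members' pooled reads, so the summed profile is not that of NK receptors alone. The 6 points share the depth of their libraries, and low counts add noise to each profile.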

How the data were processed

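RNA of 6 mouse lungs (TruSeq RNA V2, paired reads of 150 bases, MiSeq) was mapped to mouse Build 37.2 and counted per gene by the authors with GeneSifter, and the deposited values are raw read counts, 1 library per mouse. The submitters' processing notes name BWA and edgeR; versions, strand and multi-mapping settings are not given in the sources used here. A further 6 columns repeat the counts and were not used, nor was the authors' own comparison (group means, ratios and P values). Of the counts above 0, 63.5% to 69.0% per library were even, and of the members' 42 values above 0, 32, so that both mates of a pair may have been counted. Intervals and limits of detection cover counting error only.

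Groups follow the labels. Symbols were matched by Entrez Gene ID for 24048 genes (93.0%). Genes with at least 10 counts were tested in edgeR 4.0.16 by quasi-likelihood (R 4.3.3; library size is the total count on genes, no covariate), with Benjamini–Hochberg adjustment over all tested genes and thresholds of an adjusted P under 0.05 and 2-fold. P values measure the spread between mice. The SE is the log2 fold change over the square root of F. Exact permutation tests of CPM are two-sided with 10 splits and a smallest P of 0.1. Scripts were tested on simulated data. Coding sequences came from GENCODE M21 (GRCm38), another build than that of the counts, and were aligned with Biopython 1.88. The genes named were the members, other Klra loci and the 5 nearest profiles. Of each list, up to 4 genes of lowest P and the defining markers were named. Cd8a, Sftpc, Nkg7, Cd69, Lyz2, Itga2, Xcl1, Il2rb and Cd160 were added after their values were seen, as were the sums by class and the ratios. The members and lists were chosen with earlier results of these data known.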

Additional observations from a re-analysis of the deposited data

How the results depend on the processing

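No paired analysis was possible because the replicate numbers of the groups differ (1 to 3 against 4 to 6). Alternatives were TMM and DESeq2 size factors, no filter, the DESeq2 1.42.0 Wald test, edgeR's exact test, halved counts, a prior count of 2, and each library left out. Left out together after the data were seen were replicates 2 and 6. The summed Ly49 ratio stayed below 0 in all 13 alternatives, from -0.91 (without Klra2 and Klra17, chosen after the data were seen) to -0.40. Among these, counting members with identical reads only once could not change the ratio, as 0 pairs of members had the same reads throughout. The fold changes of Klra2, Klra3, Klra8 and Klra9 stayed below 0 in their alternatives. Those of 3 members reversed: Klra1 was at 0.050 and Klra4 at -0.091 without RAG1-/- Sgo1-/+ replicate 4, and Klra7 at 0.52 without RAG1-/- replicate 1. With single libraries left out these ran from -4.33 to 0.050 for Klra1, from -0.091 to 0.89 for Klra4 and from -0.95 to 0.52 for Klra7. Without replicate 1 Klra1 had under 10 reads and was not tested. Members called were 0 throughout. Members with an unadjusted P under 0.05 numbered 0 with DESeq2, where 694 of all genes passed, and 0 to 2 when single libraries were left out. Genes called over the table were 1 with DESeq2 (Awat1) and 0 to 1 with single libraries left out (H2-K1 without replicate 5). Genes with an unadjusted P under 0.05 numbered 571 to 1420 when single libraries were left out, and 611 without replicates 2 and 6, against 976. For the other lists they numbered 5 to 13 when single libraries were left out, against 10. The cause was not tested. Depth limits the members too: 12 of their 54 values are 0, and the SE of Klra1 (1.58) or Klra9 (0.88) leaves large differences undetected.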
